A study of Arabidopsis thaliana with 6 samples.

Results

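JAZ proteins are the repressors of jasmonate signalling in plants. They were measured here on 6 arrays of Arabidopsis thaliana RNA after salicylic acid (SA) or with an overexpressed SIB1 gene. The genes were chosen by locus, as every probe whose gene name begins with a listed JAZ locus in any array file. Of 10 listed genes, 8 had such a probe among the 21500 on the array, each with 1 probe: JAZ1 (AT1G19180), JAZ2 (AT1G74950), JAZ3 (AT3G17860), JAZ5 (AT1G17380), JAZ6 (AT1G72450), JAZ9 (AT1G70700), JAZ10 (AT5G13220) and JAZ12 (AT5G20900). JAZ7 and JAZ8 were not analysed here.

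Jasmonates are lipid-derived hormones that govern wound responses, defence against chewing insects and necrotrophic fungi, and flower fertility. At rest a JAZ protein holds the transcription factor MYC2 and its relatives silent by bringing in the adaptor NINJA and the corepressor TOPLESS (TPL). When the active hormone, the isoleucine conjugate made by JAR1, binds the receptor COI1, COI1 marks the JAZ proteins for destruction and the MYC factors are freed. Many JAZ genes are themselves MYC targets, so transcript levels of the repressors often follow the hormone's activity. SA, the hormone of defence against biotrophic pathogens, is widely known to antagonise jasmonate outputs.

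Each array compared a plant RNA labelled with Cy5 against its control RNA labelled with Cy3. In 4 arrays the Cy5 RNA came from plants of the Columbia accession that had received 5 mM SA 2, 5, 10 or 24 h earlier (each time on a single array), and the Cy3 RNA from untreated Columbia plants. In 2 arrays it came from plants overexpressing SIBA, which is SIB1 (AT3G56710) in the reference table, named CA32F3 and CA32F4 and called line 1 and line 2 here, with vector control plants in Cy3. All plants were 28 days old and sampled without roots. For the overexpressors the labels state neither the accession nor the promoter, nor whether the lines came from separate transformations; for no array do they state how many plants were pooled or whether control RNA was shared.

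Ratios below are on the log2 scale, Cy5 plant over control. Background was corrected with an added constant of 50 signal units, which shrinks the ratios of dim spots, and a loess curve set the ratio at each brightness to 0. A gene was called in limma when its adjusted p was below 0.05 and its mean reached 2-fold; for the slope over time the adjusted p alone decided. Dyes were never swapped, so a dye preference of a probe cannot be told apart from a change. The SA controls were untreated, so an effect of the act of treatment cannot be told apart from that of SA. Nothing in the labels shows that the RNAs were separate cultures, so the p-values reflect the spread among these particular arrays and nothing beyond it. For the SA mean, and for its difference from the overexpressors, this spread includes the change between times. A response that varies with time therefore has a larger error than a steady one of the same mean. In whole shoots, fewer cells of a type and less RNA per cell cannot be told apart.

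Signals were weakest 2 h after SA and in the overexpressors. The median Cy5 signal above local background was 21.5 at 2 h and 79 and 84 in lines 1 and 2, and it was between 206.5 and 404 on the other SA arrays. SIB1 stood at 5.25 and 5.59 in lines 1 and 2, as the overexpressor labels state. The leaf genes RBCS1A, LHCB1.3, RCA and PSBO1 had control signals of 440 or more above local background on every array. The 4 flower markers did not exceed 123.5 and the 3 seed markers 85, while among 4 root markers the glucosidase gene PYK10 reached 1095.5. PYK10 was also called lower after SA (mean -1.06 ± 0.46, adjusted p = 0.0442), while the other 3 root markers had means between -0.12 and 0.00; whether this bears on the JAZ values was not tested.

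After SA, transcripts of all 8 JAZ genes lay on average above the untreated control, most of all JAZ1 and JAZ9, at 2.91-fold and 2.73-fold. None of the 8 passed the test over the 4 times, in which change between times counts as error. JAZ1, with a mean log2 ratio of 1.54 ± 0.75 (SD over 4 times), missed the threshold narrowly (limma, adjusted p = 0.0514), and JAZ9, with 1.45 ± 0.83, had an adjusted p = 0.070. The call rule took 3.75% of all 21280 probes tested. An unadjusted p under 0.05 was reached by 7 of 8 JAZ genes, all but JAZ6, against 26% of all probes.

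**Figure D1:**
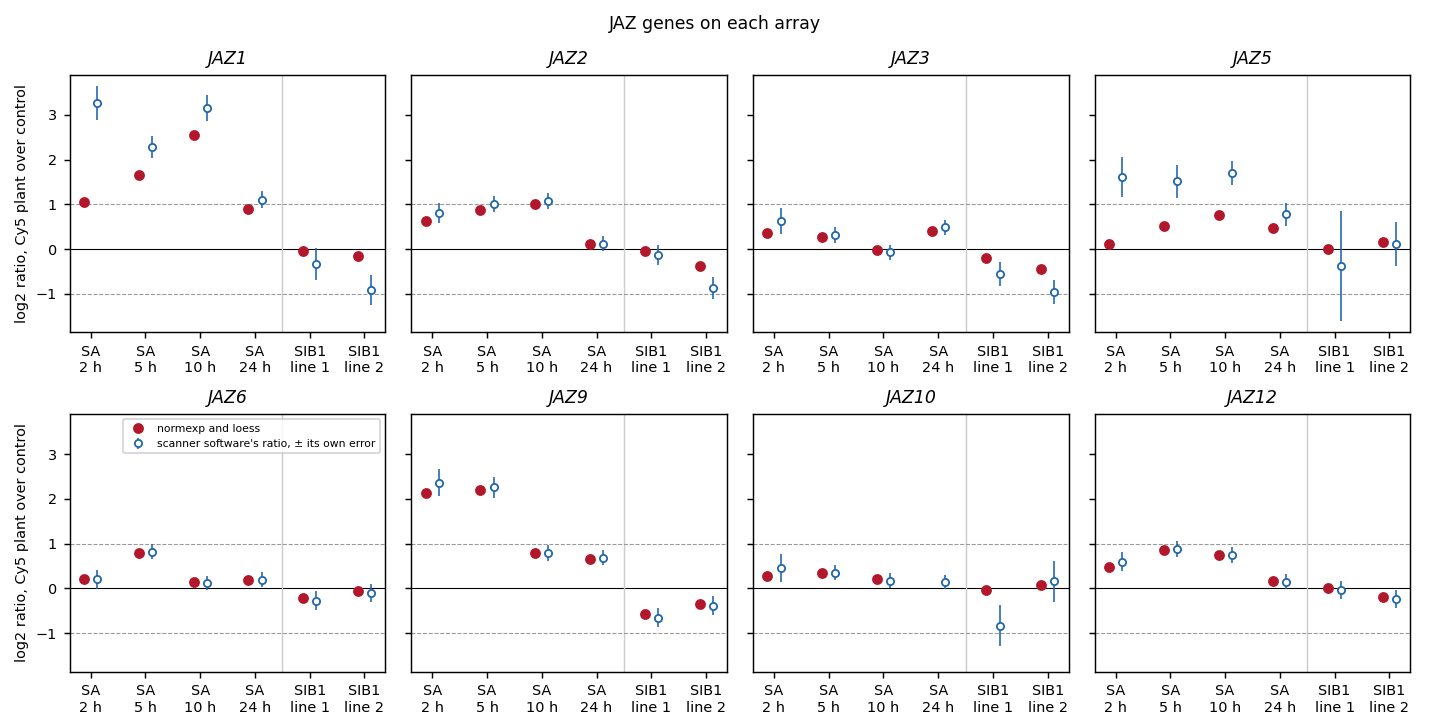
Log2 ratios of 8 JAZ genes on each array (y axis), with SA arrays at 2, 5, 10 and 24 h and SIB1 lines 1 and 2 along the x axis. Filled points are the ratios used in the text, open points the scanner software's own ratios with its error per spot, and dashed lines mark 2-fold. Among filled points JAZ1 is highest at 10 h with 2.56 and JAZ9 at 2 and 5 h with 2.12 and 2.21; JAZ10 has no filled point at 24 h because its spot carried an outlier mark.

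JAZ1, one of the JAZ proteins shown to bind COI1 in the presence of the hormone, had log2 ratios of 1.06, 1.66, 2.56 and 0.90 at 2, 5, 10 and 24 h of SA. In lines 1 and 2 it had -0.05 and -0.16. All 4 SA values lay above both lines, with the 10 h array highest and the 24 h array lowest. Behind these ratios stood Cy5 signals above local background of 99, 335, 1194 and 439 in SA plants, against Cy3 signals of 55.1, 68, 99 and 139 in their controls. The control was therefore dim on every SA array, and the size of the ratio depended on how background was handled. The scanner software's own ratio was 9.57-fold at 2 h where the value used here was 2.08-fold, and 8.91-fold at 10 h where it was 5.88-fold. JAZ1 became a call with the scanner's ratios (mean 2.45, adjusted p = 0.0244), with limma on the authors' deposited ratio table (1.84, adjusted p = 0.0161), with a background constant of 16 (1.92, adjusted p = 0.0219), under median centring (1.66, adjusted p = 0.0370), when only probes well above background in both channels were tested (adjusted p = 0.0399) and when the variance followed brightness (adjusted p = 0.0372). Leaving out an SA array never made it a call, and over all alternatives its adjusted p lay between 0.0161 and 0.180.

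JAZ2, the closest relative of JAZ1 and a regulator of stomatal opening during bacterial infection, followed a flatter course. Its ratios were 0.63, 0.87, 0.997 and 0.12 at 2, 5, 10 and 24 h of SA, and -0.04 and -0.38 in lines 1 and 2. It stayed just below 2-fold at 10 h, the SA time at which JAZ1 was also highest, and was near 0 at 24 h. The mean over SA times was 0.65 ± 0.39 (adjusted p = 0.0836). Its signals were brighter than those of JAZ1 on the control side, at 77 to 276.

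JAZ9, which binds MYC2, was higher at 2 and 5 h than later. After 2, 5, 10 and 24 h of SA it read 2.12, 2.21, 0.80 and 0.67, against -0.56 and -0.35 in lines 1 and 2. The 2 earlier SA arrays stood above 4-fold and the 2 later ones below 2-fold, and no SA value overlapped the lines. At 2 and 5 h these ratios exceeded those of JAZ1, but with the scanner's ratios JAZ1 was higher at both times (3.26 and 2.28) and with the authors' deposited ratios at 5 h (JAZ1 2.18, JAZ9 2.102). JAZ9 was bright throughout, with Cy5 signals of 1557, 6516, 3796 and 3017 in SA plants and Cy3 signals of 225, 1139, 1295 and 986 in their controls. The ratios hardly depended on background handling: the scanner's software gave 2.37, 2.26, 0.79 and 0.68. Under median centring they were 2.83, 2.35, 0.98 and 1.04 at 2, 5, 10 and 24 h, so the 24 h value passed 2-fold. JAZ9 was called with limma on the authors' deposited ratio table (mean 1.36, adjusted p = 0.0441) and under median centring (1.80, adjusted p = 0.0378). Its adjusted p ranged from 0.0378 to 0.210 over all alternatives.

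JAZ3, the gene of the jai3 jasmonate-insensitive allele, lies in the same branch of the family as JAZ9 but stayed below 2-fold throughout. It had 0.35, 0.26, -0.01 and 0.42 at 2, 5, 10 and 24 h of SA, and -0.19 and -0.44 in lines 1 and 2. Its 10 h value was the single SA value of any JAZ gene below 0, out of 31. The SA mean was 0.26 ± 0.19 (adjusted p = 0.181), while both lines lay below 0 and below all SA arrays. JAZ4, another gene of that branch, had an SA mean of 0.09 ± 0.09.

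JAZ5 and JAZ6 form a pair of related repressors that carry an EAR motif, through which they can bind TPL directly. JAZ5 had ratios of 0.11, 0.53, 0.75 and 0.47 at 2, 5, 10 and 24 h of SA, and 0.00 and 0.16 in lines 1 and 2. Its 2 h value lay below line 2 and its later values above it. The spot was the dimmest of the family on the Cy5 side of the lines, at 5.2 and 11.1 above local background. In line 1 the scanner software replaced its Cy5 signal by a surrogate, so the scanner's ratio there is not a measured one. The ratio used here came from the spot's own signal, which barely exceeded its background. At 2 h the Cy5 signal was 13.3 in SA plants against a Cy3 signal of 49 in their control; the medians over all probes of that array were 21.5 in Cy5 and 60 in Cy3, and loess sets ratios relative to spots of like brightness. With the scanner's own ratios of 3.04-, 2.86-, 3.25- and 1.71-fold JAZ5 became a call (mean 1.40, adjusted p = 0.0196), against a mean of 0.46 ± 0.27 and an adjusted p = 0.0921 as computed here; over all alternatives the adjusted p lay between 0.0196 and 0.287.

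JAZ6 was 0.22, 0.79, 0.15 and 0.19 at 2, 5, 10 and 24 h of SA, against -0.20 and -0.07 in lines 1 and 2. The 5 h array was highest, at 1.73-fold, on bright signals of 1235 in SA plants and 574 in their control. The mean of 0.34 ± 0.30 had an adjusted p = 0.202. Under median centring the SA ratios were 0.72, 0.93, 0.42 and 0.52 and their mean 0.65 (adjusted p = 0.0309, under 2-fold; range over alternatives 0.0309 to 0.416).

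JAZ10 gives rise to splice forms that resist destruction and dampen the jasmonate response. It had 0.28, 0.34 and 0.20 at 2, 5 and 10 h of SA, with -0.04 and 0.07 in lines 1 and 2. The spot at 24 h carried an outlier mark and was left out of the fit; kept in, it read 0.13. The mean was 0.27 ± 0.07 (SD, n = 3; limma, adjusted p = 0.147). At 2 h the Cy5 signal was only 12.3 above local background, and with a background constant of 16 the values were 0.70, 0.36 and 0.22.

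JAZ12, whose protein is bound and stabilised by the ubiquitin ligase KEG, had 0.47, 0.85, 0.75 and 0.16 at 2, 5, 10 and 24 h of SA, against 0.02 and -0.19 in lines 1 and 2. It was higher at 5 and 10 h than at 2 and 24 h and stayed below 2-fold, but under median centring it read 1.02, 1.005, 1.009 and 0.53 at 2, 5, 10 and 24 h. It was a bright spot, with 350 to 2685 units in SA plants and 193 to 1257 in their controls. The mean of 0.56 ± 0.31 had an adjusted p = 0.0802. Under median centring the mean was 0.89 with an adjusted p = 0.0156, still under 2-fold and so not a call; over all alternatives the adjusted p lay between 0.0156 and 0.255.

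**Figure D2:**
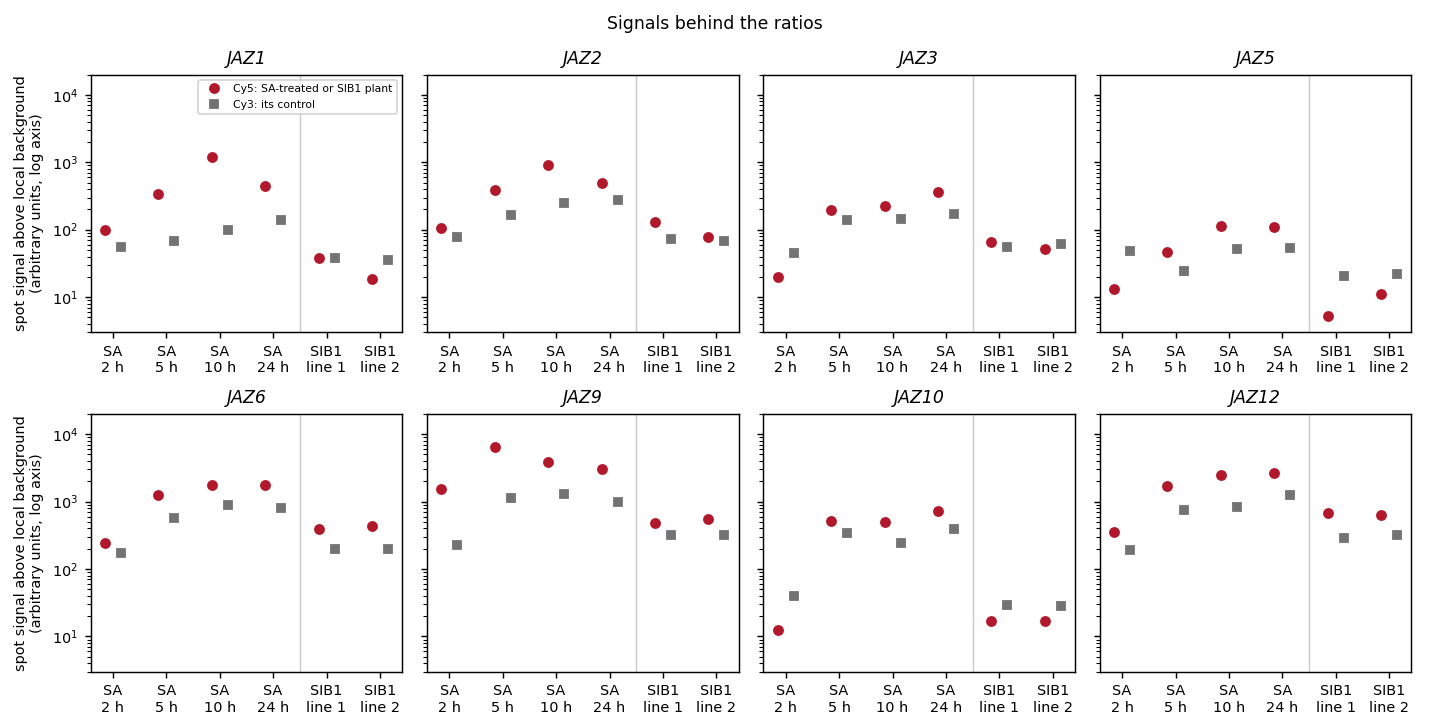
Spot signals above local background (arbitrary units, log axis) of each JAZ gene on each array. Circles are the Cy5 plant (SA-treated or SIB1 overexpressor) and squares its Cy3 control. JAZ1, JAZ3, JAZ5 and JAZ10 lie under 100 in both channels on the 2 h SA array, while JAZ9 exceeds 200 on every array.

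At single arrays, JAZ1 and JAZ9 were the JAZ genes that reached 2-fold, both of them at 2 h and at 5 h and JAZ1 alone at 10 h. That makes 2 of 8 at 2 h, where 3.84% of all probes were at least 2-fold higher, 2 of 8 at 5 h (6.09% of all probes), 1 of 8 at 10 h (7.3%) and 0 of 7 at 24 h (5.31%). No JAZ gene was 2-fold lower on an SA array, where 2.31, 3.66, 4.43 and 5.63% of all probes were at 2, 5, 10 and 24 h. The median over the JAZ genes was 0.41, 0.82, 0.75 and 0.42 at 2, 5, 10 and 24 h, while the median of all probes lay between -0.01 and 0.02. At 10 h the count was 3 with the scanner's ratios, under median centring and with the smaller background constant, and at 24 h it was 1 under each of these. With the authors' deposited ratios it was 2 at 10 h and 1 at 24 h.

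Of 7 JAZ genes with a value at all 4 SA times, 6 were above their control at every time, against 19.6% of all probes. The exception was JAZ3. None was 2-fold higher at every time (1.71% of all probes). By position among all probes of an array, JAZ9 exceeded 98.9 and 98.4% of probes at 2 and 5 h but 89.7 and 89.9% at 10 and 24 h, and JAZ1 exceeded 96.4, 97.3, 99 and 93.7% at 2, 5, 10 and 24 h.

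**Figure D3:**
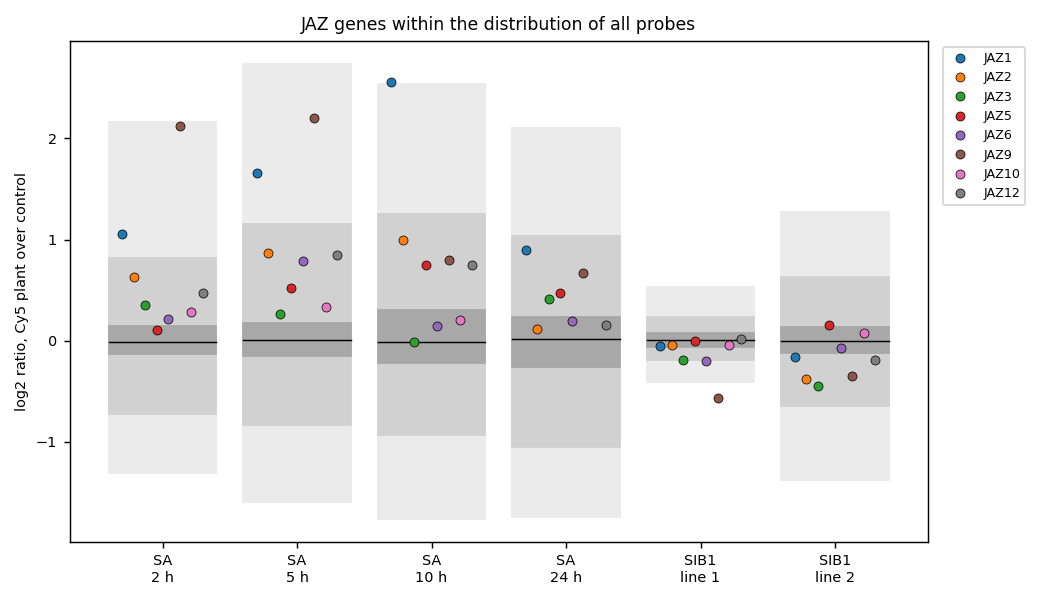
Log2 ratios of the JAZ genes (coloured points) over the distribution of all probes on each array; boxes span the quartiles, then the 5th to the 95th and the 1st to the 99th percentile, from dark to pale, with the median as a line. On the SA arrays 30 of 31 points lie above 0, and JAZ9 in line 1, at -0.56, falls below the 1st percentile of -0.40. JAZ9 was brighter than the median spot of line 1, and the added constant shrinks the ratios of dim spots.

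A slope on log2 of hours was fitted to ask whether ratios moved with time after SA. JAZ9 had the steepest slope among the JAZ genes, -0.48 per doubling of time with a standard error of 0.14. It was the single JAZ gene of 8 with an unadjusted p under 0.05, against 980 (4.61%) of all 21280 probes. Its adjusted p in limma was 0.9998, and 0 probes were called (0%). JAZ1 had a slope of 0.03 ± 0.26 (standard error), which ran from -0.49 with the scanner's ratios, where 2 h was its highest time, to 0.64 without the 24 h array. Whether the time courses of JAZ1 and JAZ9 differ was not tested, since each time had 1 array.

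In the SIB1 overexpressors no JAZ gene reached 2-fold in either direction. Past that size were 0.191% (up) and 0.0838% (down) of all probes in line 1, and 1.88% (up) and 2.26% (down) in line 2. The JAZ ratios ran from -0.56 to 0.02 in line 1 and from -0.44 to 0.16 in line 2. With 2 arrays limma called 0 of 21482 probes (0%). An unadjusted p under 0.05 was reached by 1 of 8 JAZ genes, JAZ9, against 995 (4.63%) of all probes. The lowest adjusted p of a JAZ gene was 0.664. SIB1 itself, at a mean of 5.42 ± 0.24, also had an adjusted p = 0.664, so this test could not call even the overexpressed gene and the JAZ genes' lack of calls says nothing about stability. JAZ9 had the lowest mean, -0.46 ± 0.15 (SD, n = 2), followed by JAZ3 with -0.32 ± 0.18 and JAZ2 with -0.21 ± 0.24. This order depended on the processing. With the scanner's ratios JAZ3 and JAZ1 were lowest, at -0.76 and -0.62, and JAZ9 had -0.52. JAZ9 stayed lowest with a constant of 16 (-0.51, JAZ3 -0.50) and with the authors' deposited ratios (-0.53, JAZ3 -0.49). In the ratios used here JAZ1, JAZ2, JAZ3, JAZ6 and JAZ9 lay below 0 in both lines, 5 of 8, against 30.2% of all probes. These signs depend on the scaling: under median centring the means of JAZ6, JAZ9 and JAZ12 were 0.46, 0.17 and 0.55, while JAZ1 and JAZ3 stayed below 0 at -0.41 and -0.29 and JAZ5 and JAZ10 fell below it, at -0.47 and -0.45. With the scanner's ratios none of the 8 means lay above 0. That of JAZ5 joined -0.38 in line 1, on a surrogate Cy5 signal, with 0.11 in line 2. Intervals in this design were wide, from -0.78 to -0.13 for JAZ9 and from -0.34 to 0.13 for JAZ1 (95% confidence interval).

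The SA mean was set against the overexpressor mean to ask whether the JAZ genes behaved differently after SA and with SIB1 overexpressed. SIB1 was also higher in SA-treated than in untreated plants (4.46, 3.71 and 2.89 at 2, 5 and 10 h; limma, adjusted p = 0.0242; the 24 h spot left out for an outlier mark). The difference was above 0 for all 8 JAZ genes, under each scaling tried. JAZ9 differed by 1.90 (95% confidence interval 0.59 to 3.22; adjusted p = 0.251) and JAZ1 by 1.65 (0.46 to 2.84; adjusted p = 0.268). These were the largest differences, in an order that turned under median centring (JAZ9 1.63, JAZ1 2.06), with a constant of 16 (2.04 and 2.12), with the scanner's ratios (2.04 and 3.07) and with the authors' deposited ratios (1.89 and 2.09). None was called, where 0.0652% of 21482 probes were (0.0605% higher and 0.00466% lower); at an unadjusted p under 0.05 there were 5 of 8, JAZ1, JAZ2, JAZ3, JAZ9 and JAZ12, against 12.2% of all probes.

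All SA arrays lay above both lines for 6 of the 7 JAZ genes with a value on every array, against 15.3% of all probes. The exception was JAZ5, whose 2 h value lay below line 2 and whose line 1 value rests on a Cy5 signal of 5.2 above local background. For JAZ1, JAZ2, JAZ6 and JAZ9 every SA ratio was also above 0 and both lines below it, 4 of 7 against 3.85% of all probes. Both patterns depend on the scaling. Under median centring all SA arrays lay above both lines for 5 of 7, with JAZ6 and JAZ12 the exceptions, against 32.9% of all probes, and the opposite signs held for 3 of 7, JAZ1, JAZ3 and JAZ5, against 4.47%. With the scanner's ratios the 2 patterns held for 7 and 5 of 7, against 15.7 and 2.91% of all probes. The first of these counts includes JAZ5, whose scanner ratio in line 1 used a surrogate Cy5 signal. With the authors' deposited ratios they held for 6 and 5 of 6, against 13.9 and 3.89%. The array files differ in their columns: those of the 2 h array and both lines, which are also the dim ones, hold spatial detrend columns, and those of 5, 10 and 24 h do not. Their full column sets still differ, with 101 columns at 2 h, 106 in the lines and 84 in the others, so by exact set no SA array shares a layout with a line. Within the files that hold detrend columns the difference of the 2 h array from the overexpressor mean was 2.58 for JAZ9, 1.16 for JAZ1, 0.84 for JAZ2, 0.67 for JAZ3 and 0.56 for JAZ12, and 0.35, 0.27 and 0.03 for JAZ6, JAZ10 and JAZ5. With detrend columns as a block the adjusted p was 0.479 for JAZ9 and 0.887 for JAZ1, and no probe was called.

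**Figure D4:**
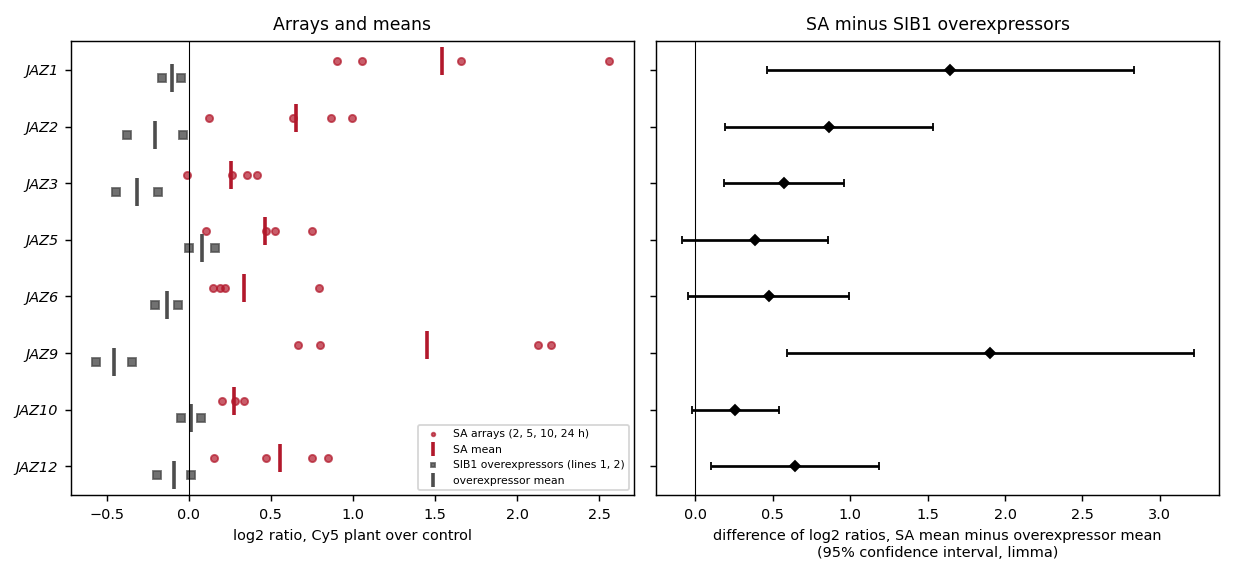
Left, log2 ratios of each JAZ gene on the SA arrays (circles) and in the SIB1 overexpressors (squares), with their means as bars; right, the difference of the means with its 95% confidence interval. JAZ9 and JAZ1 show the largest differences, 1.90 and 1.65, and the intervals of JAZ5, JAZ6 and JAZ10 include 0.

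Among all other named probes with values on all 6 arrays, those nearest to JAZ1 by Euclidean distance over the 6 log2 ratios were HSP17.4 (AT3G46230), a small heat shock protein gene, at a distance of 0.493, and the glucanase gene BG3 (AT3G57240) at 0.629. HSP17.4 had 1.24, 1.84, 2.31 and 1.23 at 2, 5, 10 and 24 h of SA. Nearest to JAZ9 were RSW10 (AT1G71100) at 0.561 and AT5G16980 at 0.610, out of 19577 probes compared. RSW10 had 2.05, 2.02, 0.80 and 0.82 at the SA times. The other JAZ genes reached 2-fold on no array and were not compared.

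Among the partners of the JAZ proteins, MYC4 was called lower after SA in the fit used here, and the others were not called. Of 10 measured signalling genes, 1 was called lower and 0 higher, where 0.954% of all probes were called lower and 2.8% higher. The called gene was MYC4, a MYC2 relative that acts with it, at -1.32, -0.59, -1.06 and -1.39 at 2, 5, 10 and 24 h (mean -1.09 ± 0.36, adjusted p = 0.0290), against -0.26 and 1.38 in lines 1 and 2. Without 1 of the SA arrays its mean was between -1.25 and -0.99, but the call was lost each time (adjusted p between 0.0615 and 0.0963). Under median centring the mean of -0.97 missed 2-fold, with an adjusted p = 0.0187. MYC2 itself was 1.67, 0.70, 0.50 and 0.36 at the SA times (mean 0.81 ± 0.59, adjusted p = 0.118), highest at 2 h and above its control at all 4, and MYC3 had a mean of -0.24. TPL was 0.90 ± 0.46 (adjusted p = 0.0604), a value that passed under median centring (1.22, adjusted p = 0.0142, range over alternatives 0.0142 to 0.173). In lines 1 and 2 TPL had 0.14 and 1.42 and MYC2 -0.46 and 1.02, so the lines disagreed and line 2 exceeded the SA mean of both genes. Of the 10 signalling genes 3 were at least 2-fold higher in line 2, against 1.88% of all probes, and 0 in line 1 (0.191%).

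The receptor gene COI1 had a mean of 0.12 ± 0.31, NINJA -0.15 ± 0.29 and JAR1 0.29 ± 0.29 after SA. JAM1, JAM2 and JAM3, which encode repressive relatives of MYC2, had -0.47, -0.20 and 0.31. Of the other TIFY family genes, TIFY8, which lacks the hormone-binding Jas motif of the JAZ proteins, had -0.43, -1.44, -1.29 and -0.48 at 2, 5, 10 and 24 h (mean -0.91 ± 0.53, adjusted p = 0.0753) and PPD2, of leaf growth control, 0.13. With the scanner's ratios (-1.04, adjusted p = 0.0487) and with limma on the authors' deposited ratio table (-1.05, adjusted p = 0.0365) TIFY8 was called lower, and its adjusted p ranged from 0.0365 to 0.220 over all alternatives. In the fit used here 0 of 3 other TIFY genes were called, against 3.75% of all probes.

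Of 11 genes for enzymes that break down or modify jasmonates, 5 were called higher after SA and 0 lower, against the 2.8% and 0.954% of all probes given above. Whether this list differs from the JAZ genes was not tested. The 5 were JOX4 (3.21 ± 1.26), IAR3 (2.61 ± 0.76), JOX2 (2.48 ± 0.11), CYP94C1 (2.35 ± 0.73) and ILL6 (2.06 ± 0.59), with adjusted p between 0.0112 and 0.0340. The JOX and CYP94 enzymes oxidise the hormone or its conjugate, and IAR3 and ILL6 cleave the conjugate. JOX2 was also called in the difference from the overexpressors (2.44, adjusted p = 0.0177). ST2A (0.10) and JMT (0.13) had the lowest means of the list. Of 13 synthesis genes, OPR3 (2.51 ± 1.18) and ACX1 (1.79 ± 0.38) were called higher and 0 lower, with AOC4 (-0.26) and AOS (-0.19) lowest. Of 12 output genes, TAT3 (2.69 ± 0.44) and NAC055 (2.38 ± 0.90) were called higher and 0 lower, with CORI3 (-0.51) and JR1 (-0.50) lowest.

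The median SA mean was 0.51 for the JAZ genes, -0.02 for signalling, 0.30 for synthesis, 1.303 for breakdown and -0.02 for output genes, against -0.01 over all probes. In limma 0 probes were called without the 5 h SA array and 0 without the 10 h array (3763 and 4673 at an unadjusted p under 0.05). No SA call named here was therefore kept when either was left out. Since no probe at all was called in these smaller fits, they cannot show which genes depend on those arrays.

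**Figure D5:**
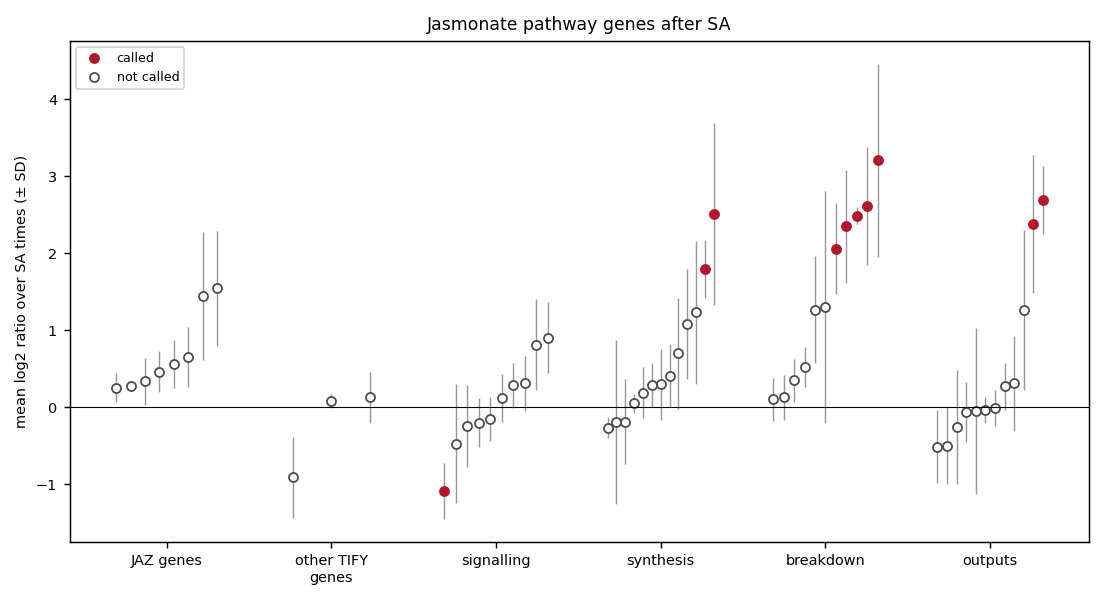
Mean log2 ratio over the SA times (points, ± SD over times) of jasmonate pathway genes by role, ordered by value within each list; filled points passed the call rule. The JAZ genes all lie above 0 without a call, while 5 of 11 breakdown genes were called higher.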

How the data were processed

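Per the labels' protocols, total RNA was amplified linearly and labelled with Cy3 (control) or Cy5. Spot intensity and local background stand in the deposited Agilent scanner files, with, per the file headers, the software's log10 ratio of Cy5 over Cy3 with its error. The deposited series table holds a linear ratio per probe; it correlated with the ratios used here at r = 0.946 to 0.993 on the log scale, so it runs the same way, but the authors' normalization is not stated in any source read here. No source read here gives a genome build or scanner software version.

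Computed from the intensities were normexp background correction (offset 50) and loess within arrays, without spots with outlier marks (1722 on the 24 h array, 10 to 25 on the others), in R 4.3.3 with limma 3.58.1 (lmFit, eBayes, Benjamini-Hochberg adjustment over all probes tested); figures used Python 3.11.15 and matplotlib 3.10.9. Log2 ratios from the deposited intensities were tested against 0, which leaves out the control's own spread. Probes needed a mark well above background in 1 channel on 2 arrays, and values on 3 SA arrays, both lines, or, for the difference, 4 arrays with both lines. All JAZ spots carried this mark in both channels, dim ones included, and none was saturated. Of 21500 probes 21342 have 1 locus and 158 are unnamed; 21157 loci were found in a RefSeq table of TAIR10.1, used for names. Probe sequences were not used here, so cross-hybridisation between JAZ genes was not checked. The number of arrays limits the precision. Methods were tested on simulated data.

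Named were all JAZ genes, 10 core signalling genes, the 2 highest and 2 lowest SA means of other lists, SIB1, and the 2 nearest probes of a JAZ gene that reached 2-fold on 2 or more arrays; other called genes were named after their values were seen. Members and lists were chosen with earlier results of these data known. Alternatives covered background, normalization, filter, variance model, layout and leaving out arrays; keeping marked spots was added after seeing the data.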

Additional observations from a re-analysis of the deposited data

How the results depend on the processing

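The number of JAZ genes called in the SA mean, 0, became 2 under median centring, with the scanner software's ratios and with the authors' deposited ratios, and 1 with an offset of 16, with probes well above background in both channels and with the variance following brightness; it stayed at 0 without any single array. Over all probes the SA count of 799 (596 higher, 203 lower) became 1264 with an offset of 16, 1386 with the scanner's ratios (923 higher, 463 lower) and 1425 with the authors' ratios (893 and 532), and ranged from 0 to 819 when 1 array was left out; median centring split it as 1040 higher and 86 lower. The overexpressor count of 0 became 412 under median centring, 406 of them higher, and 1 with the variance following brightness. For the difference, the count of 14 became 93 under median centring, 81 with an offset of 16, 71 with the scanner's ratios, 35 with the authors' ratios, 30 with the stricter filter, 34 with the variance following brightness and 0 with detrend columns as a block, and ranged from 0 to 61 when 1 array was left out; with 1 overexpressor left, that plant is assumed to vary like the SA arrays. JAZ genes at least 2-fold numbered 1 in place of 2 at 2 h without background correction and 3 under median centring or with the scanner's ratios, 3 in place of 2 at 5 h under these or with the authors' ratios, 3 in place of 1 at 10 h under median centring, with an offset of 16 or with the scanner's ratios (2 with the authors'), and 1 in place of 0 at 24 h under median centring, with an offset of 16 and with the scanner's or the authors' ratios. The JAZ counts of the overexpressor mean, the time slope and the difference were 0 under every alternative run. All 8 SA means of JAZ genes kept their sign. No paired analysis was possible because the labels number no replicates across groups and each SA time has 1 array. Dim spots limit what can be read in the overexpressors and at 2 h, among them for JAZ1, JAZ3, JAZ5 and JAZ10.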

Other observations

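With the ratios used here, JAZ9 stood low in the overexpressors as well as high after SA. In line 1 its ratio of -0.56 was lower than that of all but 0.437% of probes, on signals of 482 in the overexpressor and 317 in its control. In line 2, with -0.35, it was lower than all but 11.4%. The medians over all probes of line 1 were 79 in Cy5 and 50.7 in Cy3. The added constant shrinks the ratios of such dim spots, so these ranks compare a bright spot with many shrunken ones. The scanner software's own ratios were -0.65 with an error of 0.21 in line 1 and -0.39 with an error of 0.21 in line 2, while median centring put both near or above 0, at 0.02 and 0.33. By the scanner's ratios JAZ9 was not the lowest JAZ gene in either line. JAZ10 had -0.83 in line 1, and JAZ3, JAZ1 and JAZ2 had -0.96, -0.91 and -0.87 in line 2, on dimmer spots. The JAZ9 values are from 2 arrays and passed no test (limma, adjusted p = 0.664, and no lower than 0.334 under the alternatives).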
